A study of Caenorhabditis elegans with 2 samples.

Results

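The 7 genes described here belong to the osmotic stress response of the nematode Caenorhabditis elegans, and were examined for occupancy by ELT-3, a GATA-type transcription factor of the epidermis. They were osm-11, osm-8, ptr-23, osr-1, gpdh-1, gpdh-2 and hmit-1.1, taken by name, 7 of 19973 nuclear protein-coding genes. A gene's region ran from 2 kb upstream of its first annotated start to its end. The data were chromatin immunoprecipitation sequencing (ChIP-seq) peak lists from 1 group with 2 biological replicates. Both replicates were larvae of the L1 stage, taken whole, of mixed sex and unknown age, of strain OP75, genotype unc-119(ed3) III; wgIs75, a transgenic line that stably expresses ELT-3 with GFP and FLAG at its C-terminus. The antibody label reads elt-3. The labels name no osmotic or other treatment and give no second condition, so nothing below compares stressed with unstressed animals, and whole larvae do not show in which cells a site was bound.

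Worms placed in hypertonic medium lose water and then regain volume by building up glycerol, which is made from dihydroxyacetone phosphate by glycerol-3-phosphate dehydrogenase and a following phosphatase step. The enzyme gene gpdh-1 is induced by hypertonic stress in the intestine and epidermis. Secreted proteins of the epidermis hold this response down in normal medium, and animals that lack them make glycerol without stress. Damage to the furrows of the collagen cuticle also sets it off.

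Of the 7 genes, osm-11 was the only one with a peak in the authors' thresholded set, which holds the 1262 peaks that passed their reproducibility threshold and are the 1262 strongest of the list called on the pooled reads. This is 1 of 7, beside 6.37% of all protein-coding genes by the same rule. In the full pooled list of 5659 peaks, 4 of the 7 had a peak (osm-11, gpdh-2, gpdh-1 and osr-1), beside 24.1% of all genes. The 3 others, osm-8, ptr-23 and hmit-1.1, had no pooled peak. The replicate lists include background, and most genes have an entry in them: 6 of the 7 had one in replicate 1, beside 70.7% of all genes, and 7 of the 7 in replicate 2, beside 72.1%. With so few members these counts describe single genes and say little about the group.

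Long regions hold more peaks, and the members' regions ran from 3.21 kb (osm-8) to 9.09 kb (hmit-1.1), with a median of 5.25 kb beside 4.03 kb for all protein-coding genes. The order by peaks did not follow length. The region of osm-11, 3.37 kb, was overlapped by 5 pooled peaks, 3 of them thresholded, and 1 of those 3 at the edge of the region. That of hmit-1.1 held no pooled peak in 9.09 kb, and that of ptr-23 none in 8.29 kb. Signals are in the unit of the authors' caller, whose scale is not stated, and each list has its own. Read depth is unknown, since peak lists carry none.

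**Figure D1:**
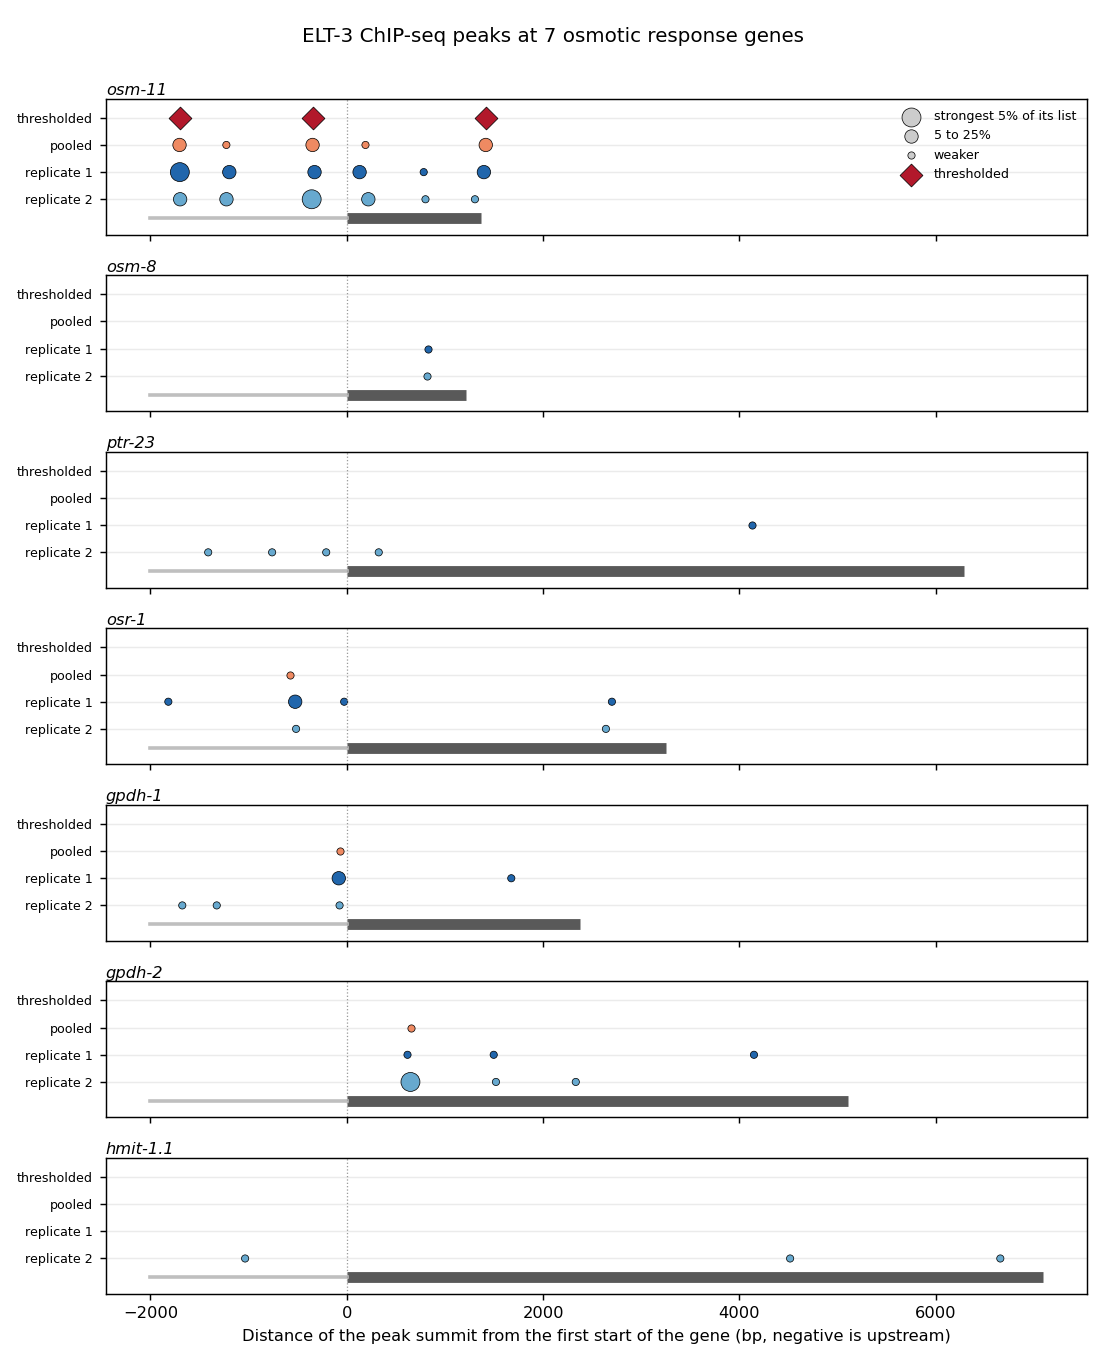
Peak summits at the 7 genes in the 4 lists, by distance from the first start of each gene (bp, negative is upstream). The dark bar is the gene, the light line the 2 kb upstream, circle size the position of the peak in its own list by signal, and diamonds the thresholded peaks. The 3 diamonds lie at osm-11, and osm-8, ptr-23 and hmit-1.1 have replicate peaks alone.

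The secreted regulator osm-11 encodes a protein related to Notch co-ligands, and its loss raises gpdh-1 expression and resistance to hypertonic medium. The gene lies on the minus strand of chromosome X, from 17420211 to 17421582 in build ce11 (WBcel235). Its strongest site, with a pooled signal of 53.5, had its summit at -348 bp (negative is upstream of the first start) and ranked 730 of 5659. The summit, at 17421930, also lies inside linc-48, a long non-coding RNA gene on the opposite strand. The annotated start of linc-48, at 17421887, is nearer to this summit than the start of osm-11. Another thresholded site lay at -1703 bp, upstream of osm-11 and past the end of linc-48, with a signal of 43.4 and rank 1230. The last, at 1416 bp, had its summit just past the annotated end of osm-11, so outside the region that the peak overlapped, with a signal of 43.3 and rank 1239. These 2 outer sites were close to the lowest signal in the thresholded set, 42.9. Weaker pooled sites lay at 191 bp, in a coding exon (signal 32.7, rank 2237), and at -1226 bp (signal 31.4, rank 2469). The nearest protein-coding start to each of the 5 summits was that of osm-11.

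Such a run of sites at one gene was uncommon, and its size depended on the peak at the gene end. The density of thresholded peaks over osm-11 was 0.890 per kb, beside 0.0126 per kb over the genome, and that of pooled peaks 1.48 per kb, beside 0.0564. These are unlike measures: the osm-11 values count any overlap with its region, and the genome values divide all peaks by genome length. Regions with 3 or more thresholded peaks were found at 29 of 19973 protein-coding genes, 0.145%, and with 5 or more pooled peaks at 54, 0.270%. Those genes are mostly long, with median regions of 13.5 kb and 17.3 kb. Among them, 3 of the 29 and 2 of the 54, osm-11 included each time, had a region no longer than that of osm-11. Counted by summit inside the region, osm-11 had 2 thresholded and 4 pooled peaks, 0.593 and 1.19 per kb, and was in neither of these classes. By that rule 2 or more thresholded peaks were found at 147 genes, 0.736%, and 4 or more pooled peaks at 110, 0.551%. With 1 kb upstream in place of 2 kb, osm-11 had 2 thresholded and 3 pooled peaks, numbers reached by 0.546% and 1.21% of genes.

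Sequences of 101 bases are shown for the 3 thresholded osm-11 sites, the only thresholded ones at the 7 genes, which differ in the motif. These sequences are centred on the pooled summits. They are read 5′ to 3′ on the plus strand of the RefSeq WBcel235 genome, and capitals mark a match on either strand to one of the 4 GATA-family hexamers searched: AGATAA and AGATAG, together with TGATAA and TGATAG.
Site at -348 bp, chrX:17421880-17421980: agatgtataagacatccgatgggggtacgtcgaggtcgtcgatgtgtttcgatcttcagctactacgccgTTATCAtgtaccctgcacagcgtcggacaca
Site at -1703 bp, chrX:17423235-17423335: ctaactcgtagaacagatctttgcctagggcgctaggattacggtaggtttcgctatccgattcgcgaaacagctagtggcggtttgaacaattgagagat
Site at 1416 bp, chrX:17420116-17420216: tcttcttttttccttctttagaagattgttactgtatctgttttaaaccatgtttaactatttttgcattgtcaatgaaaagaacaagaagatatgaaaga
The strongest site holds TTATCA, the reverse complement of TGATAA, from 17421950 to 17421955, centred 22.5 bp from the summit. The other 2 thresholded sites hold none of the hexamers within 50 bp of the pooled summit. Neither do the weaker pooled sites at 191 bp and -1226 bp. This depends on the summit used at 2 of these sites. At the 191 bp site, CTATCT, the reverse complement of AGATAG, was centred 23.5 bp from the replicate 1 summit. By the 1416 bp site, TTATCA was centred at -34.5 bp from the summit of a weaker replicate 2 peak at 1306 bp. A hexamer lay in that window in 634 of 1262 thresholded peaks, 50.2%, and in 33.6% of the pooled peaks.

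The replicates ordered the osm-11 sites differently, and their summits lay close together at 3 of the 5 sites, 3 to 29 bp apart, and farther apart at the sites at 191 bp (89 bp) and 1416 bp (134 bp). For the site at -348 bp the replicate summits were 29 bp apart, but it ranked 6154 of 25325 in replicate 1, with a signal of 14.8, and 240 of 26500 in replicate 2, with a signal of 38.4. It was the weakest of the 5 sites in replicate 1 and the strongest in replicate 2. The site at -1703 bp was steadier. Its replicate summits were 3 bp apart and its ranks 1020 and 1436, with −log10 q of 1.40 and 1.04, which made it the strongest of the 5 in replicate 1.

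The site at the gene end ranked 1361 in replicate 1 (signal 23.2, summit at 1397 bp) and 858 in replicate 2 (signal 24.7). In replicate 2 that peak had its summit at 1531 bp, past the region, 134 bp from the summit of replicate 1, and a weaker peak at 1306 bp ranked 8858. The site at 191 bp ranked 1456, with its summit at 131 bp, and 1560, with its summit at 220 bp, and the site at -1226 bp 3419 and 5372. For the site at -348 bp the larger rank was 25.6 times the smaller, and for the 4 other osm-11 sites 1.07 to 1.59 times. Over the 1253 thresholded peaks found in both replicates, the median of this ratio was 2.14 and the quartiles 1.43 and 3.76, and over the 4629 pooled peaks found in both, 2.52, 1.56 and 4.72. The strongest site lay above the upper quartile of either list. The sites at -1703 bp (thresholded), 191 bp and -1226 bp (both pooled alone) lay below the median of their list. The site at 1416 bp did so with its strongest overlapping peaks, the rule used for these medians and quartiles. With the peaks of nearest summit its ranks were 1361 and 8858, a ratio of 6.51. Quartiles by that rule were not computed.

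**Figure D2:**
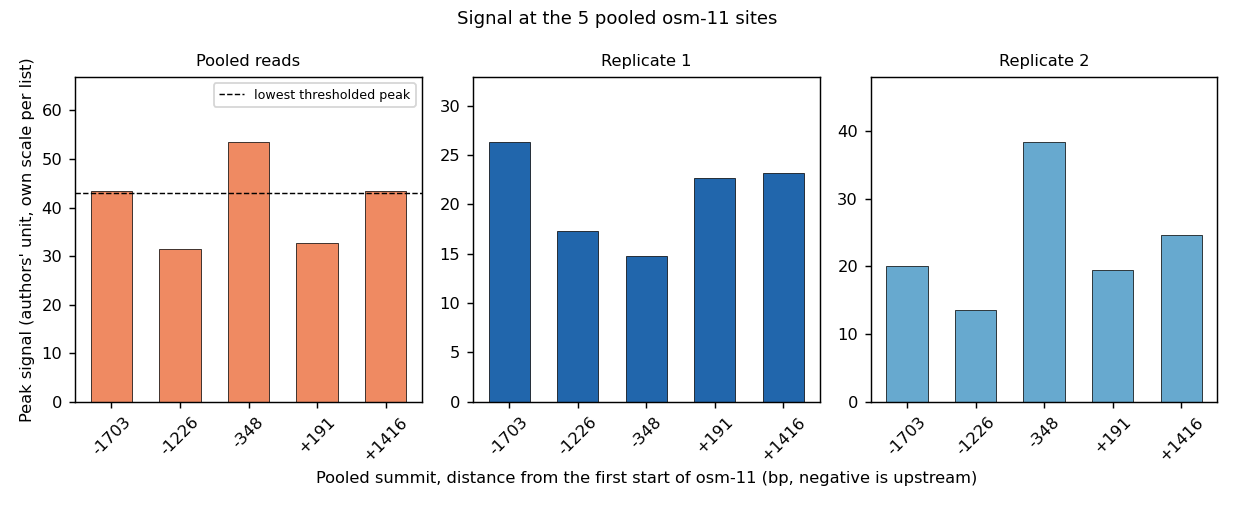
Signal at the 5 pooled osm-11 sites in the pooled, replicate 1 and replicate 2 lists, each on its own scale, by distance of the pooled summit from the first start (bp). The dashed line is the lowest thresholded signal, 42.9. The site at -348 bp is the highest bar in the pooled list and in replicate 2 and the lowest in replicate 1.

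With equal numbers of peaks taken from each replicate, the 1262 strongest, osm-11 had 1 inside its region in replicate 1, beside 5.94% of genes with any, and 1 in replicate 2, beside 6.42%. It was the only member with one in both, beside 3.95% of all genes. These were not the same site: in replicate 1 it was the site at -1700 bp and in replicate 2 the site at -357 bp. By the strongest overlapping peak, each of the 3 thresholded osm-11 sites was among the 1262 strongest of 1 replicate. So were 484 of all 1262 thresholded peaks, while 737 were among the strongest of both. For the site at 1416 bp this rests on the replicate 2 peak with its summit at 1531 bp, past the region. By nearest summit that site ranked 1361 and 8858, among the strongest of neither. By the authors' q-value within each replicate list, at most 0.05, the members with a peak were osm-11 in replicate 1 (beside 5.31% of genes), and osm-11 and gpdh-2 in replicate 2 (beside 6.08%).

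The epidermal gene osm-8 encodes a secreted mucin-like protein whose loss turns on gpdh-1 without stress. It lies on the minus strand of chromosome II from 7604196 to 7605406, nested within the span of npp-21, a nuclear pore protein gene on the opposite strand. It had no pooled peak. Each replicate listed 1 weak peak there, in a coding exon of osm-8, at 831 bp with rank 7079 and signal 14.2 in replicate 1, and at 820 bp with rank 25327 and signal 8.34 in replicate 2. The lowest signal in the replicate 2 list was 8.19.

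The gene ptr-23 encodes a Patched-related membrane protein, and its loss suppresses the effects of osm-8 loss. It lies on the plus strand of chromosome I from 14906792 to 14913083. It too had no pooled peak. Replicate 1 listed 1 peak, at 4132 bp in a coding exon (signal 14.4, rank 6679), and replicate 2 listed 4, from -1411 to 326 bp, the strongest at -209 bp (rank 11110). None of the replicate 2 peaks lay near that of replicate 1.

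Loss of osr-1 makes worms resistant to hypertonic medium, and genetic work places the kinase genes unc-43 and sek-1 downstream of it. The gene lies on the minus strand of chromosome I from 5200259 to 5203504, with the phosphodiesterase gene pde-5 at its end and the SoxC factor gene sem-2 upstream. A pooled peak at -580 bp had a signal of 27.6 and ranked 3758. Its match ranked 2908 in replicate 1 (signal 18.1, summit at -525 bp) and 20747 in replicate 2 (signal 9.01, summit at -516 bp). The pooled summit had TGATAG with its centre 11.5 bp away, and AGATAA lay within 50 bp of both replicate summits. The ranks differed by 7.13 times.

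The first of the glycerol enzymes, gpdh-1, lies on the plus strand of chromosome I from 14075837 to 14078211, with the end of the convergent gene gadr-6 inside its region. It had 1 pooled peak, at -73 bp, right at the promoter, with a signal of 30.0 and rank 2836. The replicate summits were 8 bp apart, at -81 and -73 bp. The site ranked 3505 in replicate 1 (signal 17.2) and 14635 in replicate 2 (signal 10.1), a ratio of 4.18. It lies over a pair of GATA hexamers: TTATCA occurs 2 times within 50 bp of the pooled summit, with centres at -24.5 and -6.5 bp from it. This peak was below the authors' threshold, with a −log10 q of 0.246 in the pooled list.

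The paralogous enzyme gene gpdh-2, also a source of glycerol-3-phosphate, lies on the minus strand of chromosome III from 9854074 to 9859183 and has 4 annotated coding transcripts. The potassium channel gene twk-48 is divergent from it. Its 1 pooled peak was not at the first start. The summit lay at 650 bp, in an intron of the longest transcript and at -14 bp from the start of a shorter one. The signal was 34.5 and the rank 1978, next below the 3 thresholded osm-11 sites among members.

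The sequence at this internal start of gpdh-2 is shown because it is the strongest site at a glycerol enzyme gene.
Site at 650 bp, chrIII:9858483-9858583: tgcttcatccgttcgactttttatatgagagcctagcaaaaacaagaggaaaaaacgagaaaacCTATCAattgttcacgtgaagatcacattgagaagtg
It holds CTATCA, the reverse complement of TGATAG, from 9858547 to 9858552. In replicate 2 the site ranked 1034 (signal 22.9, −log10 q 1.49), within the 1262 strongest, and in replicate 1 it ranked 11012 (signal 12.6, −log10 q 0.0755). The larger rank was 10.6 times the smaller, and the summits were 30 bp apart. As at -348 bp of osm-11, replicate 2 was the stronger library here, while gpdh-1 and osr-1 ranked higher in replicate 1.

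The transporter gene hmit-1.1 encodes a proton-coupled carrier of myo-inositol, another osmolyte, and is induced by hypertonic stress. It lies on the plus strand of chromosome V from 18516789 to 18523875 and had the weakest record of the 7. Replicate 1 listed no peak and replicate 2 listed 3, at -1035, 4516 and 6657 bp, with signals of 9.03, 8.83 and 8.39 and ranks from 20593 to 24997 of 26500.

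**Figure D3:**
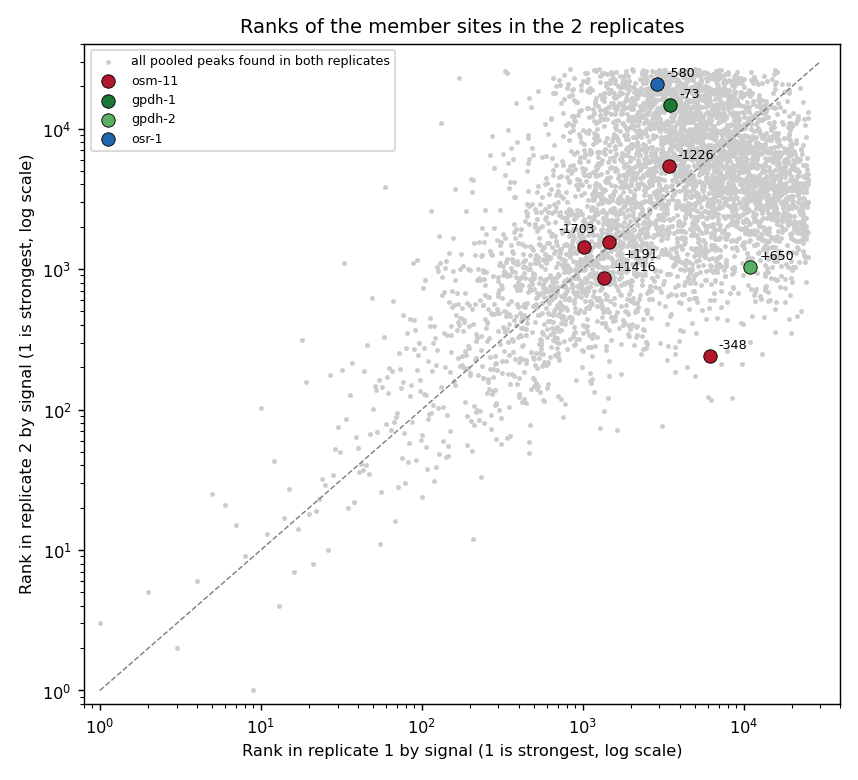
Rank by signal in replicate 1 (x) and replicate 2 (y), both on log scales where 1 is strongest, for the 8 pooled sites at members (colours, labelled with the distance of the pooled summit from the first start in bp) and all pooled peaks found in both replicates (grey). On the dashed line ranks are equal; 3 osm-11 sites lie near it at ranks from 858 to 1560, and the sites at -348 bp of osm-11 and 650 bp of gpdh-2 lie far below it.

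The number of GATA hexamers did not follow the peaks. The number per kb of region was highest at osm-8 (4.05) and ptr-23 (3.98), neither with a pooled peak, and was 3.66 at gpdh-1, 3.56 at osm-11, 2.67 at gpdh-2, 1.72 at osr-1 and 1.43 at hmit-1.1, beside 2.39 over all protein-coding genes. In the 300 bp around the first start (250 bp before to 50 bp after), 4 of the 7 genes had a hexamer: hmit-1.1 had 4, gpdh-1 had 3, and gpdh-2 and osr-1 had 1 each. Of all protein-coding genes 54.5% had one. Within 50 bp of the summit, 4 of the 8 pooled sites at members had a hexamer, namely 1 of 5 at osm-11 and the single sites of gpdh-1, gpdh-2 and osr-1. The 8 sites at 4 genes are too few for a comparison with other sites.

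Other genes of osmotic balance were counted in the same way, from lists by function: signalling, cell volume, aquaporins, furrow collagens, myo-inositol, glycerol and triose steps, trehalose, and the Patched-related family of ptr-23. Of 78 genes matched by symbol among the 79 listed (ptr-7 was not), 12 had a thresholded peak, 15.4%, and 41 a pooled peak, 52.6%, beside the 6.37% and 24.1% of all protein-coding genes given above. Their regions were longer, with a median of 6.42 kb beside 4.03 kb, and the part of length in these shares was not tested. Genes in tandem can share a peak. Replicate ranks given below for these genes are those of the strongest peak anywhere in the gene's region in each replicate. They need not belong to the pooled site named beside them, or to the same site. The lists were chosen with earlier results of these data known. The Patched-related genes, 25 of the 78, were listed by family and not by a known osmotic role. The shares are therefore a description of these lists, and an excess at osmotic genes was not tested.

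Trehalose, a sugar that also serves as an osmolyte, had the most genes, 4 of 8. The trehalase gene tre-1 had a site at -40 bp with a pooled signal of 94.8, and ranks of 113 in replicate 1 and 393 in replicate 2. Both trehalose-6-phosphate synthase genes had one, tps-1 at -433 bp (signal 52.0, ranks 766 and 948) and tps-2 at -831 bp (signal 50.8, ranks 791 and 990), and the trehalase gene tre-4 had one at -1709 bp (signal 46.1, ranks 1719 and 1350). In each replicate a peak in the regions of tre-1, tps-1 and tps-2 ranked within the top 1262. At tre-1 (113 and 393) and tps-2 (791 and 990) both ranks belonged to 1 pooled site. No single osm-11 site was within the top 1262 of both replicates. The tre-4 region had no peak in the top 1262 of either.

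Among glycerol and triose genes, 3 of 8 had a thresholded peak. The tandem glyceraldehyde-3-phosphate dehydrogenase genes gpd-2 and gpd-3 shared 1 site (signal 60.0, ranks 302 and 1071), and the aldolase gene aldo-2 had one at -381 bp (signal 44.9, ranks 1315 and 1920, outside the top 1262 of both). Among signalling genes, both kinases placed downstream of osr-1 had one, unc-43, for calmodulin-dependent kinase II, with its strongest at 19094 bp in a long gene (signal 73.1, ranks 139 and 577), and sek-1, a MAP kinase kinase gene, at -1836 bp (signal 68.3, ranks 634 and 279). They were 2 of 8. The volume kinase gene wnk-1 was 1 of 7, with a site at -1710 bp (signal 75.1, ranks 198 and 392).

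The Patched-related family had 2 of 25, ptr-12 and ptr-13. The ptr-12 site was at 7478 bp (pooled rank 66, ranks 32 and 190 in the replicates), and the ptr-13 site at -57 bp (signal 43.3). The strongest replicate peaks in the ptr-13 region ranked 1383 and 1555, also outside the top 1262 of both. These ptr-13 ranks belonged to different sites. Aquaporins (0 of 12), furrow collagens (0 of 6) and the other myo-inositol genes (0 of 4) had no thresholded peak. Their strongest pooled peaks were at the aquaporin gene aqp-2 (signal 38.9), between the divergent collagen genes dpy-2 and dpy-10 (signal 30.7), and at ttx-7, an inositol monophosphatase gene, at -230 bp (signal 41.6). The aqp-2 region had a peak among the 1262 strongest in replicate 2 alone (ranks 1806 and 350). That of ttx-7 had one in replicate 1 alone (ranks 720 and 7544). At each of these genes the replicate ranks belonged to different sites.

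**Figure D4:**
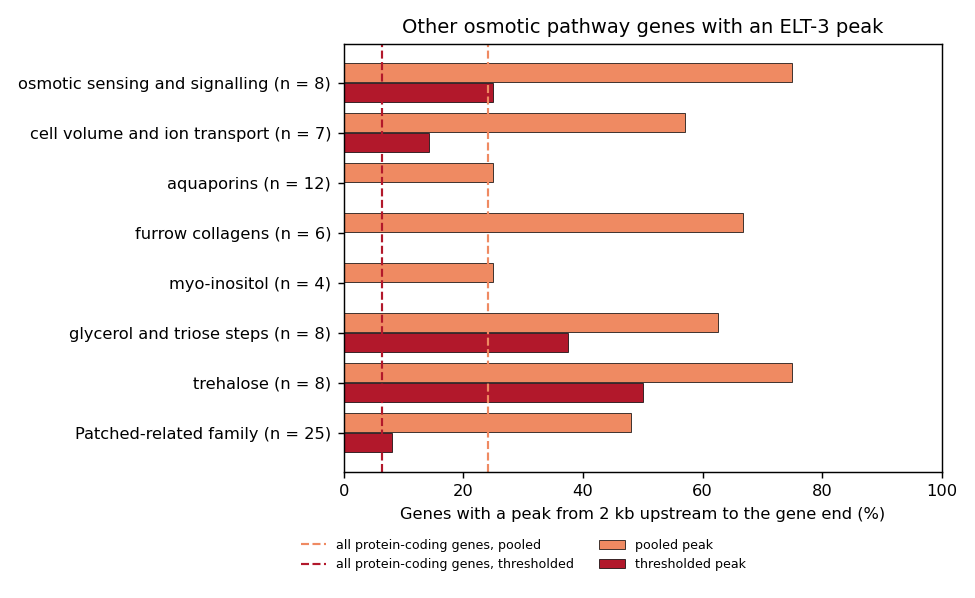
Percent of genes in each function group with a thresholded (dark) or pooled (light) peak from 2 kb upstream to the gene end, with the number of genes in each group. Dashed lines mark all protein-coding genes, 6.37% and 24.1%; trehalose genes have the highest thresholded share, 4 of 8, and aquaporin, furrow collagen and myo-inositol genes have none.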

How the data were processed

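ELT-3 ChIP-seq was deposited as peak lists. Per the deposited file lists, each replicate and the pool of both replicates gave a list of peaks with background, made by the authors against control alignments, and the thresholded set came from these by irreproducible discovery rate. Aligner and caller: not given in the sources used here. The deposited signal is the caller's strength of a peak, and the deposited −log10 value is that of a q-value within a list. The 4 lists on build ce11 were used; those on ce10 were not, since the annotation (Ensembl release 115) and genome (RefSeq) were WBcel235.

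A peak counted for a gene when it overlapped by at least 1 bp the region from 2000 bp upstream of the first start to the gene end. Ranks were taken by signal within a list. The replicate value of a member site was the strongest overlapping peak. For pathway genes, replicate ranks were those of the strongest peak in the gene's region in each replicate. The 4 hexamers were sought on both strands within 50 bp of a summit. With 1 group there was no test; counts stand beside the share of all nuclear protein-coding genes. The members, the pathway lists and the search motif were chosen with earlier results of these data known. The text names all members, pathway genes with a thresholded peak or the strongest pooled peak of a group with none, and protein-coding neighbours within member regions that hold a pooled peak. The neighbours npp-21, linc-48, crb-1 and pbo-6 and the pathway genes gpdh-3 and ptr-2, outside this rule, were added after the values were seen. Alternatives were other regions, overlap rules, strengths, motifs and each replicate alone. The overlap and motif procedures were tested on simulated data. Software was matplotlib 3.10.9, pandas 2.3.3, numpy 2.4.6 and Python 3.11.15.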

Additional observations from a re-analysis of the deposited data

How the results depend on the processing

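The thresholded count, 1 of 7 (osm-11), did not change with 1 or 5 kb upstream, a promoter window of 1000 bp upstream to 250 bp downstream of any coding start, the summit in place of overlap, or the nearest coding start. It was 0 in the stronger part of the thresholded list, whose construction drops peaks below the median. With the strongest peaks of either replicate alone it ran from 1 to 2, and with replicate peaks of q at most 0.05, chosen after seeing the data, also from 1 to 2. The gene added without replicate 1 was gpdh-2. The pooled count of 4 was unchanged in those same 5 settings and was 2 in the stronger part of the pooled list. No pooled list without a replicate was made. The member with a strong peak in both replicates, osm-11, was lost with 1 kb upstream (0) and with the promoter window (0), which leave out its site at -1703 bp. The pathway count of 12 was 7 with the promoter window, beside 3.96% of all genes, and 11 without either replicate, all 3 settings chosen after seeing the data. Those 11 were not the same genes: 9 were shared with the 12 each time, aldo-2, tre-4 and ptr-13 were lost in both, aqp-2 and gpdh-3 were gained without replicate 1, and ttx-7 and ptr-2 without replicate 2. Trehalose genes then numbered 3 of 8 in both, aquaporins 1 of 12 without replicate 1 and myo-inositol genes 1 of 4 without replicate 2. The peaks at osm-11 itself, 3 thresholded and 5 pooled, were 2 and 4 by summit, and 2 and 3 with 1 kb upstream, counts added after seeing the data. The number of the 8 member sites with a motif, 4 within 50 bp, was also 4 within 25 bp, 7 within 100 bp, 2 with GATAA and 8 with GATA, beside 33.6%, 18.7%, 51.5%, 32.4% and 58.4% of pooled peaks. With the nearest summit in place of the strongest overlapping peak, 15 of 16 replicate ranks were the same to within the spread between replicates, and the osm-11 site at 1416 bp ranked 8858 in replicate 2 in place of 858. Depth is unknown, so a missing peak is not shown to be absent binding.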

Other observations

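Beyond the osm-11 sites, the thresholded list held no peak within 20 kb, while the pooled list did. Thresholded peaks are sparse, at 0.0126 per kb over the genome, so this does not show an isolated group. Within 5 kb on either side of osm-11 there were 3 thresholded peaks, the same number as within 20 kb, where 6 protein-coding genes lie, osm-11 included, and 50 kb on either side held 4. Pooled peaks numbered 7, 10 and 14 in these windows, the 5 at osm-11 included. The nearest protein-coding neighbours were crb-1, an ortholog of the Crumbs polarity protein gene, whose annotated start is at 17414014 on chromosome X, and pbo-6, whose start is at 17429042.

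The gene gpdh-3, chosen after its values were seen, lay just below the threshold with a pooled signal of 42.4 and rank 1299. The strongest peak in its region ranked 12413 in replicate 1 and 664 in replicate 2, and these need not be the same site.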
